A study of Rattus norvegicus with 15 samples.

Results

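*Epas1*, which encodes the hypoxia-inducible factor subunit HIF2α, was followed together with 4 genes that serve as markers of pseudohypoxic and angiogenic signaling: *Vegfa*, *Angpt2*, *Cd34* and *Trib2*. The 5 genes were chosen by name, wherever the name stood in at least 1 of the 3 deposited tables of differential expression, and all 5 were found among 8621 genes. RNA-seq had been performed on macrodissected adrenal medulla of 15 rats of the Sprague-Dawley strain, 5 in each group. WT rats were wildtype and 7 to 9.5 months old. HYP samples came from MENX rats with medullary hyperplasia at 4 to 5 months, and PCC samples from MENX rats with pheochromocytoma at 7 to 9.5 months. The PCC group joined less advanced and advanced tumors, which the authors divided by adrenal weight and the sample labels do not tell apart. MENX rats carry a spontaneous mutation of *Cdkn1b*, the gene of the cell cycle inhibitor p27, in every cell, and no group had been treated. HYP and WT samples differed in age as well as in genotype, so effects of age and genotype cannot be told apart, whereas PCC and WT rats were of the same age range. PCC and HYP samples differed in age too, so effects of age and of tumor stage cannot be told apart in that comparison. Each library held between 16315018 and 23831269 reads on genes.

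HIF2α is an oxygen-regulated transcription factor. With oxygen present, prolyl hydroxylases mark the HIFα subunits and the *Vhl* product directs them to degradation, and without it they pair with an ARNT protein and switch on target genes. A state in which this program runs although oxygen is available is called pseudohypoxia and defines one class of pheochromocytoma. *Vegfa* encodes the main growth factor for blood vessels, *Angpt2* a ligand of the endothelial receptor TIE2 that loosens vessels for remodeling, *Cd34* a sialomucin on the surface of endothelial and progenitor cells, and *Trib2* a Tribbles pseudokinase that acts as a scaffold for protein degradation.

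In the rat build Rn06 used for the counts, *Epas1* lies on chromosome 6 from 10306405 to 10387265 on the plus strand and *Trib2* on the same chromosome from 41016730 to 41039437 on the minus strand. *Vegfa* lies on chromosome 9 from 17340341 to 17355681, *Angpt2* on chromosome 16 from 75966352 to 76016195 and *Cd34* on chromosome 13 from 113691932 to 113711647, all on the plus strand. All 5 are protein-coding genes, and reads were counted over their exons. The whole span of *Angpt2* lies within *Mcph1*, which runs on the minus strand. The library kit does not mark strand, so reads from the overlapping parts of the pair cannot be told apart. *Mcph1* itself was counted at only 1.76 to 6.76 CPM (counts per 1000000 reads on genes), well under *Angpt2* in every library.

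The start regions of the genes were searched for the core of the hypoxia response element, the motif that HIF dimers bind, spelled ACGTG or GCGTG on either strand. RefSeq start regions (build GRCr8) were at hand for 4 of the 5 genes, and *Angpt2* had no entry. Among 33469 start regions of all genes, 36.7% held a core within the 250 bases upstream of the start site. *Trib2* held GCGTG 75 bases upstream of its start site, and *Cd34* held the opposite-strand letters CACGT 236 bases upstream. Neither the *Epas1* window nor the windows of the 2 *Vegfa* start sites held a core, which says only that these letters are missing there. The *Epas1* window and the *Vegfa* window that is not printed lay wholly inside the annotated genes. The *Epas1* start site used was 1418 bases inside its gene, which this build enters on the minus strand. The region upstream of the annotated *Epas1* gene was therefore not searched. The printed windows end where the annotated gene begins, cores are in capitals, and *Vegfa* is shown as the ligand without a core: *Trib2* at chr6:44299140-44299344 (minus strand), *Cd34* at chr13:109008536-109008785 (plus strand) and *Vegfa* at chr9:22452604-22452853 (plus strand).
Trib2: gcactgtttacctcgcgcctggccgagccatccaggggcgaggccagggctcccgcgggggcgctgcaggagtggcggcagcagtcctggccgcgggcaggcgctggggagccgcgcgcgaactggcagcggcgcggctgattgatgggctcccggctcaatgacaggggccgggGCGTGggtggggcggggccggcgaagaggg
Cd34: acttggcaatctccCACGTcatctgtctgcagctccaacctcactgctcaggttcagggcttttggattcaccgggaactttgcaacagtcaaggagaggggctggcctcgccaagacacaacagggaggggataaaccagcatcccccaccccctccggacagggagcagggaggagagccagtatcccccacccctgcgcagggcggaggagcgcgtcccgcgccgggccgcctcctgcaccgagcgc
Vegfa: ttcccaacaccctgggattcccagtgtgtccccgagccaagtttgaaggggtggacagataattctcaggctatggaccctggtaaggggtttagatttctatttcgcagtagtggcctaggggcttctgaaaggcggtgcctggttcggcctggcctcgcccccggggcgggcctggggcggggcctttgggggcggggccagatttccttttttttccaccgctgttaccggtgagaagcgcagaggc

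The tables list only genes that had passed the authors' own test in a comparison, so each gene was tested here only in the comparisons that list it, against a background that is rich in changed genes. *Epas1* was listed in all 3 comparisons, *Vegfa* not in PCC vs. WT, *Angpt2* and *Cd34* not in PCC vs. HYP, and *Trib2* not in HYP vs. WT. Counts and CPM were nevertheless at hand for all 5 genes in all 15 samples. Adjusted *p*-values are those of the quasi-likelihood F-test of edgeR, adjusted after Benjamini and Hochberg, a gene was called at an adjusted *p* under 0.05, and n = 5 per group throughout. In PCC vs. WT, 4 of 4 tested genes of the set were called higher and 0 lower, where 42.1% of all 6977 genes tested were called higher and 42.4% lower. In HYP vs. WT, 3 of 4 were called higher and 0 lower, against 43.5% and 25.5% of 4109 genes. In PCC vs. HYP, 2 of 3 were called higher and 0 lower, against 20.1% and 31.4% of 3143 genes. On the scale of each pairwise fit, the groups did not overlap for 2 of 4 genes in PCC vs. WT, 3 of 4 in HYP vs. WT and 2 of 3 in PCC vs. HYP, where 66.3%, 54.7% and 50.7% of all genes tested did not overlap. On the scale of the CPM printed here, which spans all 15 samples, *Vegfa* did not overlap between PCC and HYP either, which makes 3 of 3. With so few genes and such backgrounds these counts describe the set and single it out in no comparison.

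**Figure D1:**
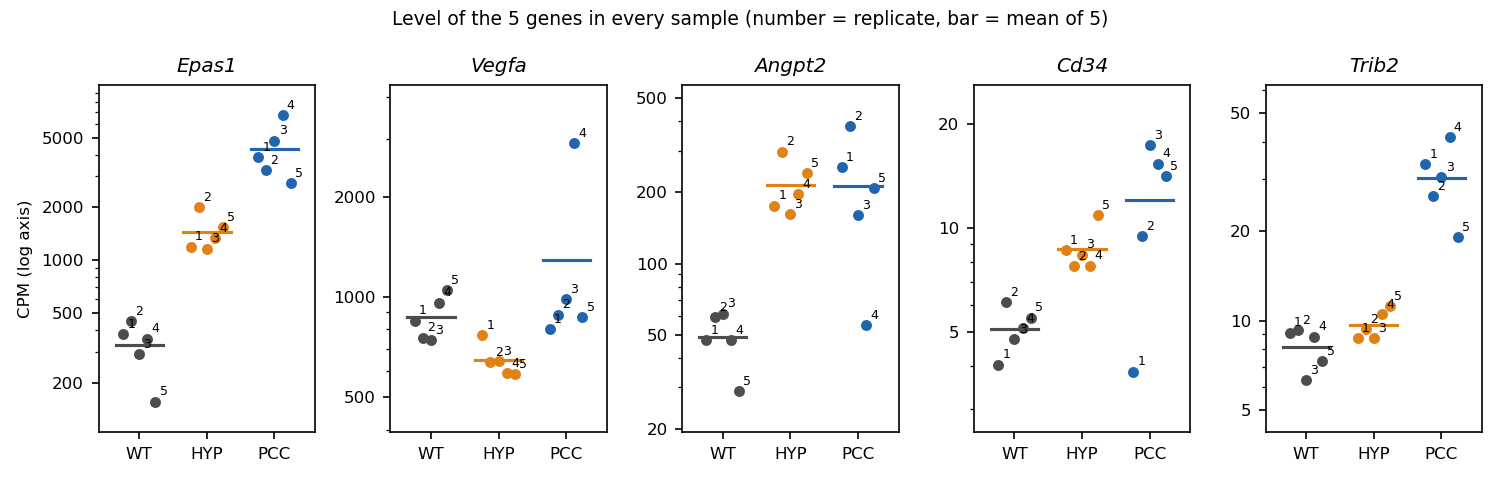
CPM of the 5 genes on a log axis in each of the 15 samples, with the replicate number beside each point and the group mean as a bar. *Epas1* forms 3 separate steps, with all WT samples at or under 448, HYP between 1162 and 2006, and PCC at or above 2747, whereas 1 PCC sample stands apart from its group for *Vegfa* (2911) and for *Angpt2* (55).

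*Epas1* showed a stepwise increase from WT through HYP to PCC. In the WT samples it was measured at 379, 448, 292, 357 and 156 CPM (replicates 1 to 5, as in all such series). HYP samples held 1195, 2006, 1162, 1329 and 1536 CPM, and PCC samples 3885, 3273, 4797, 6691 and 2747 CPM. No sample of one group reached into the range of another, and WT replicate 5 was the lowest of all 15 samples. Relative to WT, *Epas1* rose 4.43-fold in HYP (log2 fold change 2.15, SE 0.28, adjusted *p* = 0.000861) and 12.1-fold in PCC (3.60, SE 0.39, adjusted *p* = 0.000128). Between HYP and PCC it rose a further 2.65-fold (1.41, SE 0.29, adjusted *p* = 0.0157). On the log2 scale of mean CPM, 59.1% of the difference between PCC and WT was already present in HYP. The step from HYP to PCC was the least secure, since its adjusted *p* was 0.0504 without HYP replicate 4.

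The level of *Epas1* per transcript length was also high. Its mean was 90.7 FPKM (SD 38.5) in WT, 434 (SD 121) in HYP and 1376 (SD 541) in PCC. Among the 5492 genes with values in all samples it thereby ranked 524th in WT, 42nd in HYP and 12th in PCC. *Epas1* took 0.0113% to 0.0465% of the reads on genes in WT and 0.302% to 0.756% in PCC. By size of change it was less exceptional: 95.6% of the genes tested in PCC vs. WT, 92.1% in HYP vs. WT and 69.7% in PCC vs. HYP had a smaller log2 fold change in either direction.

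*Vegfa* showed no such steps. WT samples held 850, 756, 742, 964 and 1052 CPM, HYP samples 769, 638, 644, 592 and 588 CPM, and PCC samples 801, 886, 986, 2911 and 870 CPM. PCC replicate 4 was far above every other sample. On the scale of these CPM, the other 4 PCC samples lay within the WT range, and 4 of 5 HYP samples lay below it. HYP was 0.752 times WT (log2 fold change -0.41, SE 0.15, adjusted *p* = 0.0913), which did not pass the test. PCC was 1.79 times HYP (0.84, SE 0.37, adjusted *p* = 0.251), which did not pass either and was 0.30 on the log2 scale without PCC replicate 4. PCC and WT differed by 0.37 in mean log2 CPM and by 0.03 without that sample. With other scalings and fits of all samples, the difference between PCC and WT ranged from 0.19 to 0.80. The value without PCC replicate 4 is on the CPM scale only. In a fit of all 15 samples together, the only test at hand for this pair, the adjusted *p* was 0.328.

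Per length, *Vegfa* was nonetheless the most abundant of the 5 genes in WT medulla, at 273 FPKM (SD 19.6) against 90.7 (SD 38.5) for *Epas1*. In HYP the order was turned, with 226 FPKM (SD 14.3) for *Vegfa* and 434 (SD 121) for *Epas1*. In PCC *Vegfa* averaged 495 FPKM (SD 365), its SD being set by the 1 sample at 1141. By FPKM, which is scaled by reads on genes and length alone, PCC replicates 2, 3 and 5 (368, 386 and 331) also exceeded every WT sample. The WT samples reached 296 FPKM, and PCC replicate 1 was at 251. Counts of *Vegfa* were at least 10330 in every library.

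*Angpt2* rose at the HYP stage and had a similar mean in PCC (215 ± 54.9 and 212 ± 121 CPM, SD). WT samples held 47.6, 59.5, 61.4, 47.6 and 29 CPM, HYP samples 176, 297, 162, 197 and 242 CPM, and PCC samples 256, 381, 160, 55 and 208 CPM. All HYP samples were above all WT samples, and so were the PCC samples except replicate 4, which lay within the WT range. By FPKM, PCC replicate 4 (25.4) was level with the highest WT sample (25.3). *Angpt2* rose 4.40-fold in HYP (log2 fold change 2.14, SE 0.23, adjusted *p* = 0.000298). In PCC it rose 3.99-fold over WT (2.00, SE 0.43, adjusted *p* = 0.00412). Mean log2 CPM in PCC was 0.23 below that in HYP, with no test from the tables, and the sign turned to 0.19 above without PCC replicate 4. The overlapping *Mcph1* was also called higher, by 1.08 (SE 0.19, adjusted *p* = 0.00379) in HYP and 1.41 (SE 0.24, adjusted *p* = 0.0011) in PCC on the log2 scale, at its much lower level.

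On the scale of the CPM printed here, *Vegfa* and *Angpt2* stood in opposite positions within the groups. In WT the order of the 5 samples by *Vegfa*, from replicate 5 over 4, 1 and 2 to 3, was the reverse of that by *Angpt2*, in which replicates 1 and 4 were nearly tied at 47.6 CPM. By FPKM the WT order was not reversed. Replicate 5 was then lowest for *Angpt2* (8.62) but also below replicate 1 for *Vegfa* (264 against 296). In PCC the sample with the highest *Vegfa*, replicate 4, had the lowest *Angpt2*. After the group means had been removed, the genes deviated with opposite signs in 12 of 15 samples, and Pearson's r of log2 CPM was -0.88 over 15 samples, the most negative value of *Angpt2* with any of 4682 genes. It was -0.63 over the 14 samples without PCC replicate 4. The points share the library scaling, and the signs and r were taken on this CPM scale only. No *p* is given, and the relation was noticed in these samples.

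**Figure D2:**
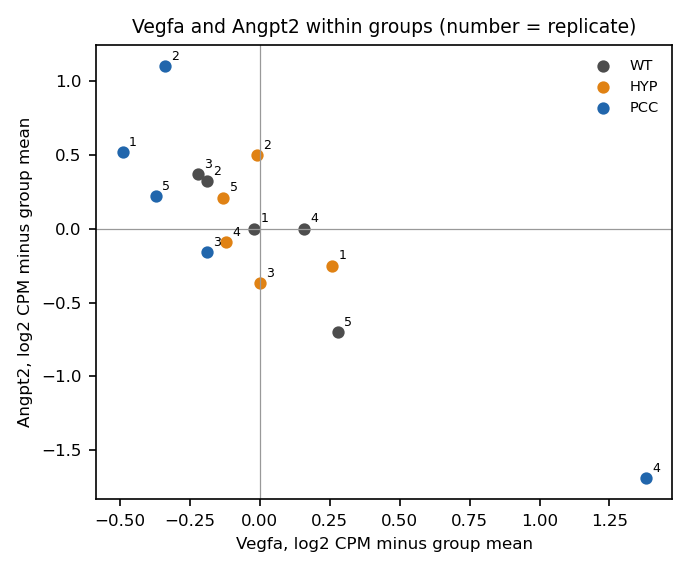
Deviation of *Angpt2* from its group mean (log2 CPM, vertical axis) against that of *Vegfa* (horizontal axis) for each sample, with replicate numbers. PCC replicate 4 lies at 1.38 for *Vegfa* and -1.69 for *Angpt2*, and 12 of the 15 samples have opposite signs, several of them close to 0 on an axis.

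*Cd34* was a low-abundance transcript that rose in both MENX groups. WT samples held 4.03, 6.11, 4.78, 5.15 and 5.52 CPM, HYP samples 8.66, 7.78, 8.39, 7.8 and 10.9 CPM, and PCC samples 3.85, 9.48, 17.4, 15.4 and 14.2 CPM. All HYP samples were above all WT samples, 4 PCC samples were above all WT samples, and PCC replicate 1 was the lowest of the 15. *Cd34* rose 1.72-fold in HYP (log2 fold change 0.78, SE 0.19, adjusted *p* = 0.0175) and 2.20-fold in PCC (1.14, SE 0.36, adjusted *p* = 0.0301). PCC exceeded HYP by 0.30 in mean log2 CPM, within a spread of 4.53-fold among PCC samples. These are small counts, 76 to 369 reads per library, and both calls depended on single samples: PCC vs. WT was lost when any of 6 samples was left out (WT replicates 1, 3 and 4, PCC replicates 3, 4 and 5, adjusted *p* 0.056 to 0.0729), and HYP vs. WT without WT replicate 1 (0.0621).

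*Trib2* changed at the tumor stage. WT samples held 9.11, 9.28, 6.31, 8.84 and 7.33 CPM and HYP samples 8.72, 9.35, 8.76, 10.5 and 11.2 CPM, so the groups overlapped. PCC samples held 33.6, 26.2, 30.5, 41.6 and 19.1 CPM, all above every WT and HYP sample. *Trib2* rose 3.43-fold over WT (log2 fold change 1.78, SE 0.24, adjusted *p* = 0.000355) and 2.78-fold over HYP (1.47, SE 0.21, adjusted *p* = 0.00328). HYP and WT differed by 0.24 in mean log2 CPM, with an adjusted *p* of 0.958 in the fit of all 15 samples. Only 13.4% of the log2 difference between PCC and WT was present in HYP, compared with 59.1% for *Epas1*, 70.3% for *Cd34* and 112% for *Angpt2*. The differences between these shares were not tested.

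**Figure D3:**
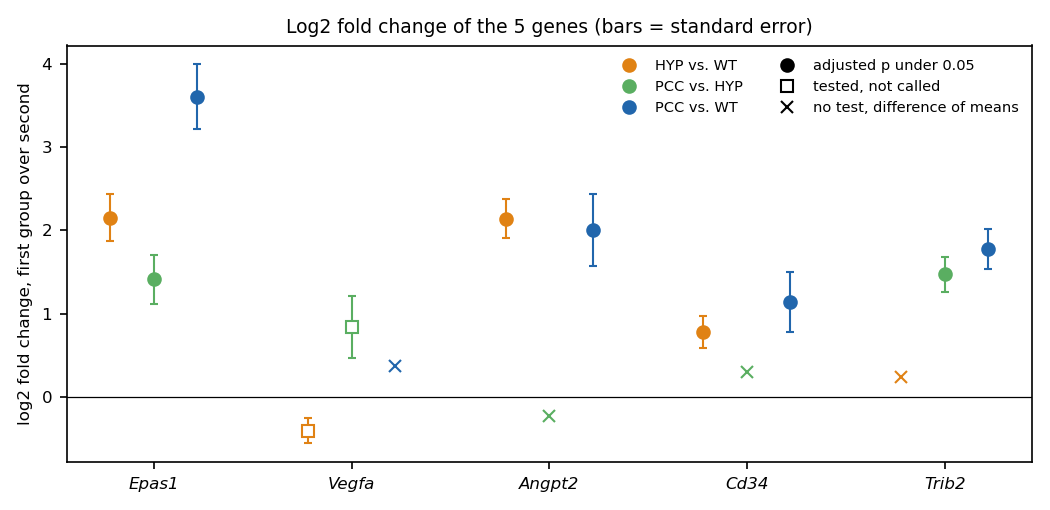
Log2 fold change of each gene in the 3 comparisons, with standard errors as bars. Filled circles passed the test, open squares did not, and crosses are differences of mean log2 CPM where the table does not list the gene. *Epas1* is the one gene called in all 3 comparisons, *Angpt2* sits at 2.14 in HYP and 2.00 in PCC, and *Trib2* sits at 0.24 in HYP and 1.78 in PCC.

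The regulators around *Epas1* changed in both directions, as did all genes. Among HIF subunits and oxygen-sensing genes, 5 of the 10 tested were higher in PCC than in WT and 4 were lower. Of all genes tested, 42.1% were higher and 42.4% lower, which is near these shares. The median log2 value was 0.39 compared with 0.36 for all genes tested. *Epas1* is one of the 5 higher genes. *Egln3*, a prolyl hydroxylase that is itself induced by HIF, rose by 3.89 (SE 0.70, adjusted *p* = 0.00155) on the log2 scale over WT and by 2.88 (SE 0.65, adjusted *p* = 0.021) over HYP. Its samples ran from 2.58 to 42.5 CPM in PCC and from 0.735 to 2.6 CPM in HYP, so these groups overlapped. The neural partner subunit *Arnt2* rose by 1.31 in HYP and 1.90 in PCC, and *Npas1* (2.29) and the transmembrane prolyl hydroxylase *P4htm* (1.24) rose in PCC. Among the negative regulators, *Vhl* fell by 0.52 in HYP and by 1.04 in PCC, and the prolyl hydroxylase *Egln2* fell by 0.94 and by 0.88. *Cited2*, which competes with HIF for its coactivator, fell by 1.45 in PCC vs. WT. *Siah2* is not such a negative regulator but a ubiquitin ligase for prolyl hydroxylases, and it fell by 1.07 in that comparison. *Arnt* fell by 0.65 in PCC vs. HYP, and *Tceb1* did not pass the test (-0.46, adjusted *p* = 0.0687). The falls depended on the scaling of the libraries. With each library's sum of listed counts as the scale, *Vhl*, *Egln2*, *Cited2*, *Siah2* and *Arnt* stayed below 0 but were called in none of these comparisons, and *Tceb1* changed sign (0.11). With the total reads on genes as the scale, these calls were lost too, except that of *Vhl* in PCC. With the authors' size factors, the rise of *Arnt2* in HYP and the fall of *Arnt* in PCC vs. HYP were not called. In HYP vs. WT, 2 of 4 genes were higher and 2 lower (median 0.40, all genes -0.30), against 43.5% and 25.5% of all genes. In PCC vs. HYP 2 of 6 were higher and 1 lower (median 0.78, all genes 0.40), against 20.1% and 31.4%.

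HIF target genes were called in both directions as well. Relative to WT, PCC had 12 of 24 higher and 9 lower (median 1.22, all genes 0.36), against 42.1% and 42.4% of all genes tested. HYP had 7 of 21 higher than WT and 8 lower (-0.48, all genes -0.30), against 43.5% and 25.5%. Relative to HYP, PCC had 8 of 18 higher and 2 lower (1.17, all genes 0.40), against 20.1% and 31.4%. The list includes *Angpt2* and *Vegfa*. The mitochondrial subunit gene *Cox4i2* rose by 2.23 in HYP and 5.92 in PCC, and *Ndufa4l2*, a further mitochondrial gene, by 1.99 and 3.73. *Stc2*, which encodes a secreted glycoprotein hormone, rose in PCC by 4.02 over WT and 4.59 over HYP. It was near the floor in WT (2 to 13 reads per library) and HYP (2 to 8). Its PCC samples ran from 0.603 to 22.5 CPM and overlapped WT, which reached 0.858. Genes of glucose metabolism on the list went both ways. In PCC vs. WT, *Hk2* (1.78), *Pgk1* (1.32), *Pfkfb3* (1.25) and *Eno1* (1.05) fell by these log2 amounts, while the glucose transporter gene *Slc2a3* rose by 1.98 and *Gbe1*, of glycogen synthesis, by 1.09. In HYP vs. WT, *Pfkfb3* (1.35), *Ldha* (0.80), *Pgk1* (0.75) and *Aldoa* (0.61) fell, while *Slc2a3* rose by 1.57 and *Pfkfb4* by 1.33. With the sum of listed counts as the scale, the 4 falls in HYP and those of *Pfkfb3* and *Eno1* in PCC were no longer called. *Ddit4*, a stress-induced inhibitor of mTOR signaling, fell by 2.14 in HYP and 2.13 in PCC, the latter not called on that scale. The genes of glucose metabolism were named after their values had been seen.

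Around *Vegfa*, a related ligand rose while the receptors fell. *Pgf*, the placental growth factor that binds the receptor encoded by *Flt1*, was measured at 1.19, 1.42, 0.902, 2.44 and 0.581 CPM in WT, at 2.86 to 4.96 CPM in HYP, and at 37.6, 29.4, 45, 153 and 22.9 CPM in PCC. The 3 groups did not overlap, and PCC replicate 4 was again the highest sample. *Pgf* rose by 1.55 (SE 0.34, adjusted *p* = 0.0101) in HYP and by 5.36 (SE 0.64, adjusted *p* = 0.000206) in PCC on the log2 scale, and by 3.77 (SE 0.52, adjusted *p* = 0.00316) between HYP and PCC. The lymphatic growth factor *Vegfc* fell by 0.73 and by 1.10, the main VEGF receptor *Kdr* by 0.71 and by 1.36, and *Flt1* by 0.66 and by 0.69 in HYP and PCC relative to WT. *Flt4*, the receptor of VEGFC, fell by 1.84 in PCC relative to WT and by 1.31 relative to HYP. The coreceptor *Nrp1* (-0.57 in HYP, -0.79 in PCC vs. WT) and the ligand *Figf* (-1.10 in PCC vs. HYP) did not pass the test. In all, 1 of 6 genes was higher and 4 lower in PCC vs. WT (median -0.95, all genes 0.36), where 42.1% of all genes tested were higher and 42.4% lower. In HYP vs. WT, 1 of 6 was higher and 3 lower (-0.61, all genes -0.30), against 43.5% and 25.5% of all genes. In PCC vs. HYP, 1 of 4 was higher and 1 lower (-0.13, all genes 0.40), against 20.1% and 31.4%.

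The partners of *Angpt2* fell as well. *Tek*, which encodes its receptor TIE2, was at 97.6, 90.6, 89.2, 108 and 110 CPM in WT, at 38.6, 53.3, 64.8, 50.8 and 44.7 CPM in HYP, and at 19.5, 14.5, 42.5, 14.4 and 41.4 CPM in PCC. Every MENX sample was below every WT sample. *Tek* fell by 0.95 (SE 0.16, adjusted *p* = 0.00297) in HYP and by 2.02 (SE 0.31, adjusted *p* = 0.000751) in PCC on the log2 scale. The related receptor *Tie1* fell by 0.59 and by 1.19, and the endothelial phosphatase *Ptprb*, which restrains TIE2, by 1.01 in PCC (-0.72 in HYP, not called). *Angpt1*, the ligand that keeps vessels stable, had log2 fold changes of -1.93 in PCC vs. WT (adjusted *p* = 0.0507) and -1.96 in PCC vs. HYP (adjusted *p* = 0.0602), which did not pass. Of the angiopoietin and Tie genes, 1 of 5 was higher and 3 lower in PCC vs. WT (median -1.19), against 42.1% and 42.4% of all genes. Between HYP and WT, 1 of 4 was higher in HYP and 2 lower (-0.65), against 43.5% and 25.5%, and 0 of 2 passed in PCC vs. HYP (-1.53).

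Of the other angiogenic genes, 7 of 15 were higher and 3 lower in PCC vs. WT (median 0.97, all genes 0.36), where 42.1% of all genes tested were higher and 42.4% lower. For HYP relative to WT, 5 of 10 rose and 0 fell (0.22, all genes -0.30), against 43.5% and 25.5%, and in PCC vs. HYP 4 of 7 were higher and 1 lower (1.40, all genes 0.40), against 20.1% and 31.4%. The shares of higher genes relative to WT were thus near those of all genes. *Apln*, the vessel growth peptide apelin, rose by 1.45 in HYP and 3.24 in PCC, the growth factor *Fgf1* by 2.76 and 3.07, and the guidance molecule *Sema3c* by 1.29 and 2.84 relative to WT. *Esm1*, a marker of endothelial tip cells, rose by 1.74 over WT and 2.35 over HYP in PCC. The inhibitors of angiogenesis *Thbs2* and *Thbs1* rose too, *Thbs2* by 1.04 in HYP vs. WT and *Thbs1* by 1.40 in PCC vs. HYP. *S1pr1*, an endothelial receptor, fell by 1.53 in PCC vs. HYP.

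No listed relative of *Cd34* or *Trib2* was called higher. The CD34 relative *Podxl*, an anti-adhesive sialomucin, had log2 fold changes of -0.54 in HYP (adjusted *p* = 0.0877) and -0.65 in PCC (adjusted *p* = 0.0595) vs. WT, which did not pass. *Trib3*, a Tribbles gene of the stress response, fell by 1.06 (adjusted *p* = 0.0256) in HYP and by 1.60 (adjusted *p* = 0.000454) in PCC, and *Trib1* fell by 0.81 (adjusted *p* = 0.0317) in PCC, each relative to WT. With the sum of listed counts as the scale, *Trib3* in HYP and *Trib1* were not called, and with the total reads on genes *Trib1* was not.

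**Figure D4:**
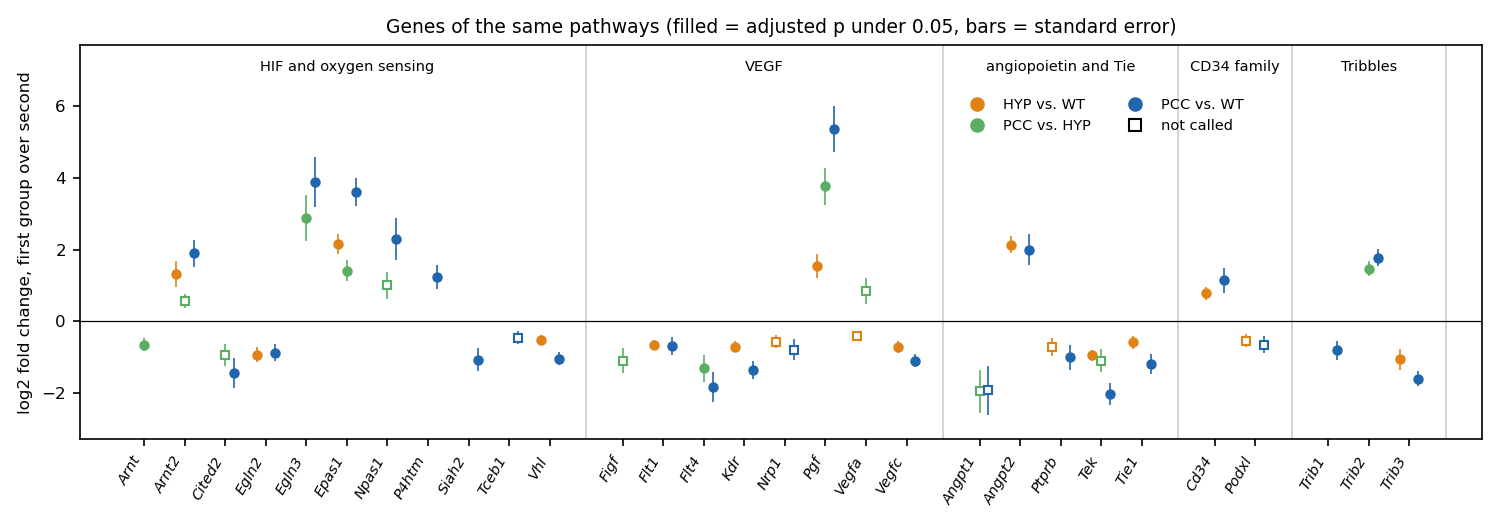
Log2 fold changes, with standard errors as bars, of all listed genes of the HIF, VEGF, angiopoietin, CD34 and Tribbles lists; filled circles passed the test and open squares did not. *Pgf* (5.36 in PCC vs. WT) and *Egln3* (3.89) stand highest, whereas the receptors *Kdr*, *Flt1*, *Flt4*, *Tek* and *Tie1* lie below 0 in every comparison that lists them.

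Of the endothelial markers, 11 of 14 tested were lower and 2 higher in PCC vs. WT (median -0.95), where 42.4% of all genes were lower and 42.1% higher. Between HYP and WT, 7 of 11 were lower in HYP and 0 higher (-0.70), against 25.5% and 43.5%, and in PCC vs. HYP 1 of 5 was lower and 2 higher (-0.92), against 31.4% and 20.1%. The list includes *Tek*, *Kdr*, *Flt1* and *Tie1*. Among the markers outside the VEGF, angiopoietin and Tie lists, 7 of 10 were lower in PCC and 3 of 7 in HYP relative to WT. Summed over the 10 markers with values in all samples, of 35 on the list, the level was 724 to 948 CPM in WT, 482 to 615 in HYP and 305 to 583 in PCC, and none of the 10 was at 0 in any library. *Adgrf5* and *Cyyr1* fell by 0.71 and 0.75 in HYP vs. WT. *Emcn* fell by 1.59 in PCC, while *Vwf* rose by 1.42 over WT. Of the pericyte and mural markers, 5 of 8 were higher and 1 lower in PCC vs. WT (median 1.24), against 42.1% and 42.4% of all genes. For HYP relative to WT the counts were 3 higher and 1 lower of 4 (0.99), against 43.5% and 25.5%, and with the authors' size factors 1 of 4 was higher. In PCC vs. HYP 2 of 4 were higher and 0 lower (1.67), against 20.1% and 31.4%. The sum of the 5 of these markers with values in all samples was 52 to 93.1 CPM in WT, 126 to 175 in HYP and 556 to 2294 in PCC. *Rgs5*, which rose by 5.45 in PCC vs. WT, made up most of it in PCC (median 1106 CPM, sum 1273). Relative to WT, *Notch3* (0.91 in HYP, 2.21 in PCC), *Cspg4* (1.08 in HYP), *Acta2* (1.60 in PCC) and *Higd1b* (2.89 in PCC) rose too. *Kcnj8* went the other way, by -1.14 in HYP and -1.10 in PCC, and was called in neither with the sum of listed counts. *Higd1b* was the one marker with a library at 0. In bulk tissue, fewer cells of a type and less RNA per cell cannot be told apart.

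The content of chromaffin and cortical transcripts differed between the groups too. Summed chromaffin cell markers (11 genes) were 2051 to 8918 CPM in WT, 10768 to 15533 in HYP and 18351 to 38385 in PCC, and summed adrenal cortex markers (10 genes) were 26476 to 59099, 13186 to 32429 and 938 to 14938 CPM. No chromaffin marker was at 0 in any library of the labelled medulla, but the cortical sum exceeded the chromaffin sum in 5 of 5 WT and 4 of 5 HYP libraries and in 0 of 5 PCC libraries. The gap was widest in WT replicate 5, at 56580 against 2051 CPM. WT replicate 5, with the lowest *Epas1* and *Angpt2*, had the lowest chromaffin sum of all samples. PCC replicate 4, with the highest *Epas1*, *Vegfa* and *Trib2*, had the lowest cortical sum. The part of these differences in the levels of the 5 genes was not tested beyond the ratios that follow.

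Relative to either marker list, *Epas1* was higher in HYP and PCC than in WT. Each gene's log2 CPM was set against the mean log2 CPM of the 10 endothelial or of the 11 chromaffin markers, and groups were compared by exact permutation (two-sided). For 5 samples against 5 the smallest *p* this can give is 0.0079, and 15 such tests were run per marker list. The markers were picked from genes the authors had called, and how far they track cell number was not tested. In PCC vs. WT, 11 of 14 endothelial markers tested were called lower and all 11 chromaffin markers higher. A gene of constant CPM would thus be higher relative to the first list and lower relative to the second. For differences in those directions, the *p* does not separate a change of the gene from that of its reference. Relative to endothelial markers, *Epas1* was higher by 2.74 in HYP and 4.41 in PCC than in WT and by 1.67 in PCC than in HYP (exact *p* = 0.0079 each, no overlap). Relative to chromaffin markers, the differences were 0.73 (exact *p* = 0.024), 1.19 (exact *p* = 0.0079) and 0.47 (exact *p* = 0.04; adjusted over the 15 tests, 0.06).

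For the other 4 genes the choice of reference decided the direction in at least 1 comparison. *Vegfa* relative to endothelial markers was higher by 1.06 in PCC than in WT (exact *p* = 0.016), but relative to chromaffin markers it was -1.90 in HYP and -2.16 in PCC (exact *p* = 0.0079 each). *Angpt2* relative to endothelial markers was higher by 2.67 in HYP and 2.59 in PCC (exact *p* = 0.0079 each), and relative to chromaffin markers the differences were 0.66 (exact *p* = 0.063) and -0.63 (exact *p* = 0.39). *Cd34* relative to endothelial markers was higher by 1.26 and 1.71 (exact *p* = 0.0079 each), and relative to chromaffin markers the differences were -0.76 (exact *p* = 0.071) and -1.51 (exact *p* = 0.024). *Trib2* was higher in PCC than in HYP under both, by 1.70 and 0.49 (exact *p* = 0.0079 each), but lower than in WT by chromaffin markers (-0.74 in PCC, exact *p* = 0.024; -1.23 in HYP, exact *p* = 0.0079). WT replicate 5 lay far from the other WT samples on the chromaffin scale for these genes, as at 4.47 for *Vegfa* where the other WT samples lay between 1.59 and 2.65.

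**Figure D5:**
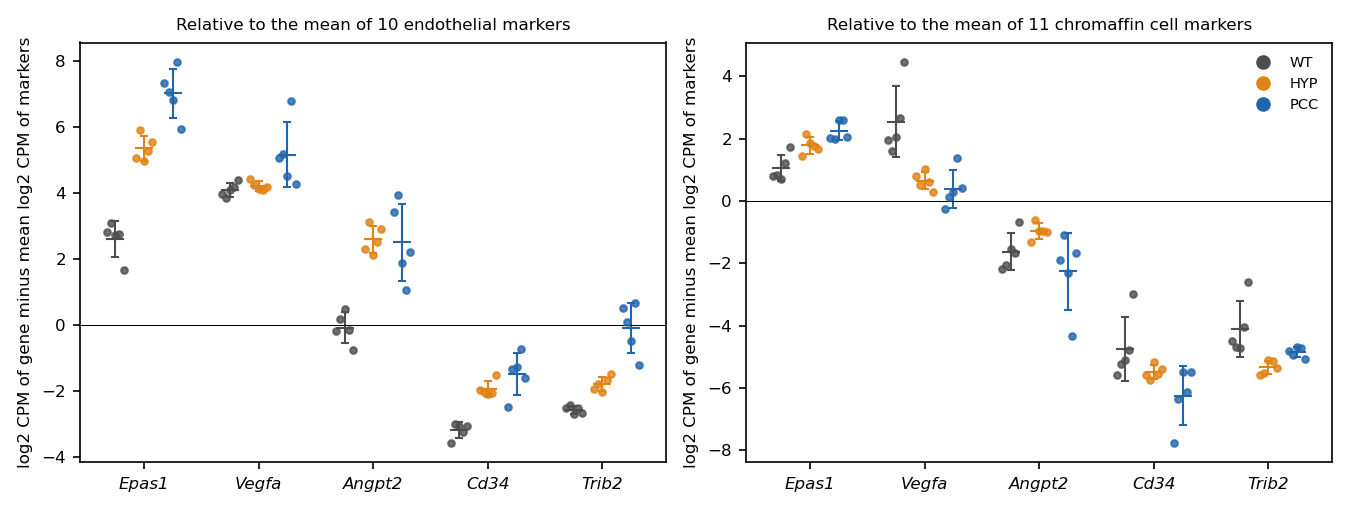
Log2 CPM of each gene minus the mean log2 CPM of 10 endothelial markers (left) or 11 chromaffin cell markers (right), with points for samples and mean ± SD for the 5 samples of a group. *Epas1* increases from WT to PCC in both panels (by 4.41 and 1.19), whereas *Vegfa*, *Cd34* and *Trib2* are higher in PCC than in WT on the left and lower on the right.

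The genes with the most similar profiles differed between the 5. Likeness was measured as Pearson's r of log2 CPM over the 15 samples with each of 4682 genes, which share the library scaling and the 3 groups, and again after group means had been removed. *Epas1* was most like *Plekha7* (0.992), *Unc79* (0.990), *Slc8a3* (0.988), *Osbpl3* (0.987) and *Cdh22* (0.987), and within groups like *Arhgap36* (0.939), *Spock1* (0.926), *Gdap1* (0.920), *Tshz3* (0.917) and *Iqsec3* (0.916). Its r with the other members was 0.86 for *Trib2*, 0.69 for *Angpt2*, 0.68 for *Cd34* and 0.29 for *Vegfa*. *Trib2*, the nearest of them, ranked 1085th among the 4682 genes.

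*Vegfa* was most like *Ldha* (0.936), which encodes lactate dehydrogenase, the glucose transporter gene *Slc2a1* (0.908) and *Adhfe1* (0.907), and within groups like *Ankrd37* (0.939), *Ldha* (0.932) and *Atp8b3* (0.909). *Ldha* was at 268, 274, 315, 914 and 255 CPM in PCC, *Slc2a1* at 34.6, 28.3, 29.9, 87.2 and 21.8 CPM, and *Ankrd37* at 2.09, 2.74, 2.08, 10.8 and 1.59 CPM. All were highest in PCC replicate 4, the sample with the high *Vegfa*. Without it, the r within groups was 0.53 for *Ldha* and 0.67 for *Ankrd37* over 14 samples. *Angpt2* was most like *Eya1* (0.984), *Ank3* (0.968) and *Atp2b4* (0.960), and within groups like *Eya1* (0.945), *Tnfrsf21* (0.916) and *Tpbg* (0.908). *Eya1* was at 41.6, 80.1, 36.5, 12.6 and 42.9 CPM in PCC, again with its lowest value in replicate 4, and r within groups was 0.90 without that sample.

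*Cd34* was most like *Notch3* (0.891), a receptor of mural cells, *Apln* (0.875) and the collagen gene *Col1a1* (0.867), and within groups like *Rpl7a* (0.858), *Notch3* (0.851) and *Col14a1* (0.826). *Notch3* was at 8.08, 36.5, 59.2, 49.1 and 28.4 CPM in PCC, with its lowest PCC value in replicate 1 as for *Cd34*. *Trib2* was most like *Slc18a2* (0.968), the vesicular monoamine transporter of chromaffin cells, *Maats1* (0.966) and *Ctnnd2* (0.966), and within groups among others like *Sema3a* (0.880) and *Tp53bp1* (0.869).

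The split of all calls into higher and lower depended on how the libraries were scaled. By TMM (trimmed mean of M-values), 49.8% of the calls in PCC vs. WT, 63.1% in HYP vs. WT and 39% in PCC vs. HYP were higher. With each library's sum of listed counts as the scale, the shares were 76.2%, 89.4% and 68.8%, with the library totals 68.7%, 75.8% and 70.8%, and with the authors' size factors 51%, 48.6% and 61.4%. PCC vs. HYP also changed to 49.8% without a filter and to 58.7% in the fit of all 15 samples, and HYP vs. WT to 70.7% with at least 10 counts in every sample. The medians of all genes moved by -0.13 to 0.57 on the log2 scale. Every call of the 5 genes kept its direction and its side of the threshold under these scalings and DESeq2's size factors, and the lower level of *Vegfa* in HYP vs. WT passed with the authors' size factors (adjusted *p* = 0.0289). The falls of the receptors kept their direction but not always their call. With the sum of listed counts, 2 endothelial markers instead of 11 were lower in PCC vs. WT and 1 instead of 7 in HYP vs. WT. On that scale *Kdr*, *Flt1* and *Tie1* were called in neither comparison with WT, *Ptprb* not in PCC vs. WT, *Vegfc* not in HYP vs. WT and *Flt4* not in PCC vs. HYP, whereas *Tek* was still called in HYP and PCC, and *Flt4* and *Vegfc* in PCC, relative to WT. The calls of *Flt1*, *Tie1* and *Ptprb* were lost with the total reads on genes too, that of *Flt4* in PCC vs. HYP with each of the 4 other scalings, and that of *Flt1* in PCC also with the authors' size factors.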

How the data were processed

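RNA of macrodissected, snap-frozen medulla (RIN above 6.5, poly-T selected) was sequenced in paired-end reads from a library kit that does not mark strand. According to the methods and the submitters' processing notes, the authors mapped reads to Rn06 with HISAT2 2.0.5, counted them with featureCounts 1.5.0-p3 and compared groups with DESeq2. The deposited tables hold, for the genes the authors called, raw read counts per gene and sample, FPKM per gene and sample, and signal values, which the authors made by dividing counts by size factors. The authors' own log2 fold changes, p-values and FDR were not used, except that p-values and adjusted values together showed how many genes had entered the authors' tests (18790 in PCC vs. WT, 18057 in HYP vs. WT, 17454 in PCC vs. HYP). All per-sample columns were assigned by sample description.

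Reads on genes per library were recovered from count, FPKM and length over genes with at least 20 counts. Per pair of groups, listed genes passing filterByExpr were scaled by TMM and tested with edgeR 4.0.16 (R 4.3.3, limma 3.58.1; glmQLFit, glmQLFTest, two-sided), with Benjamini-Hochberg adjustment over that number of genes. CPM values in the text are on 1 TMM scale over all 15 samples, and log2 CPM has a pseudocount of 0.5. Python 3.11.15 (numpy 2.4.6, scipy 1.17.1, pandas 2.3.3, matplotlib 3.10.9) served for the rest. The test was checked on simulated data. Each sample is 1 rat, and p-values measure the spread between these samples. The 5 genes, the gene lists and the tests were chosen with earlier results of these data known. Named were the 5 genes, every listed gene of the HIF, VEGF, angiopoietin, CD34 and Tribbles lists, the 4 largest called changes per comparison of the target, other angiogenic, endothelial and pericyte lists, and the 5 or 3 most similar genes (1 item named by these rules is not reported here); others are said to be named after their values were seen, as was *Mcph1*, and the ratio to chromaffin markers was added after seeing the data. Alternatives were DESeq2 1.42.0, other scalings, a minimum of 10 counts per sample, leaving out the filter, a replicate block, 1 fit over 15 samples, a pseudocount of 1, a core of endothelial genes and leaving out each sample. The division of tumors by adrenal weight was not used, since the sample labels do not give it.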

Additional observations from a re-analysis of the deposited data

Results flagged for a closer look

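Of 42 sets of 5 values examined, 4 held a sample whose gap to the nearest other exceeded 0.71 of the range, where chance gives about 1 in 20. The *Vegfa* level of 2911 CPM in PCC replicate 4 stood above the other PCC samples with a gap of 0.912 of the range. *Cd34* in HYP replicate 5 was the highest of its group, at 10.9 CPM (0.720) and at -1.52 on the log2 scale relative to endothelial markers (0.799). *Epas1* relative to endothelial markers was lowest in WT replicate 5 among the WT samples, at 1.65 (0.744), the sample that also had the lowest chromaffin marker sum, 2051 CPM. The part of tissue composition in these values was not tested.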

How the results depend on the processing

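Of 206 values recomputed with another tool, scaling, filter, marker list or fit, 185 kept their direction and their side of the threshold, as did 311 of 330 with a sample left out. For *Vegfa* in HYP vs. WT the log2 fold change was -0.51 with the authors' size factors and -0.45 with DESeq2 (adjusted *p* = 0.0289 and 0.0087), past the threshold, over a range of adjusted *p* from 0.0087 to 1. *Cd34* in HYP vs. WT was 0.77 in 1 fit of 15 samples (adjusted *p* = 0.132), no longer called, and *Trib2* in HYP vs. WT was 0.59 with the total of listed counts; the cause was not tested. Replicate numbers did not pair the samples: same-numbered samples had correlations of -0.171 to 0.256 in their deviations, and of 10 samples 3 correlated best with their own number in PCC vs. WT, 4 did in HYP vs. WT, and 2 did in PCC vs. HYP. With a replicate block 5045, 2210 and 729 genes were called in these comparisons in place of 5890, 2837 and 1618, *Epas1* in PCC vs. HYP was 1.36 (adjusted *p* = 0.0596) and *Cd34* in PCC vs. WT 0.98 (adjusted *p* = 0.0754), and no other call of the 5 genes was lost. With a sample left out, *Cd34* ranged from 1.01 to 1.39 in PCC vs. WT and from 0.64 to 0.83 in HYP vs. WT, *Epas1* in PCC vs. HYP from 1.19 to 1.53, and the genes called in PCC vs. HYP from 562 (without HYP replicate 3) to 1892 (without PCC replicate 5). Relative to endothelial markers in PCC vs. HYP, *Angpt2* (-0.09) ranged from -0.45 to 0.27 and *Cd34* (0.45) from 0.26 to 0.70 with a sample left out, and they were 0.45 and 0.98 with 4 core endothelial genes. With chromaffin markers as reference, chosen after seeing the data, differences reversed for *Vegfa* in HYP vs. WT (-1.90), PCC vs. WT (-2.16) and PCC vs. HYP (-0.25), *Angpt2* in PCC vs. WT (-0.63), *Cd34* in HYP vs. WT (-0.76), PCC vs. WT (-1.51) and PCC vs. HYP (-0.75), and *Trib2* in PCC vs. WT (-0.74) and HYP vs. WT (-1.23). *Epas1* in PCC vs. HYP (0.47) and *Angpt2* in HYP vs. WT (0.66) fell below the threshold, and *Angpt2* in PCC vs. HYP (-1.29) passed it. Depth limits *Cd34* and *Trib2* most, with 76 to 369 and 101 to 875 reads per library.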

Other observations

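*Col1a1*, among the genes most like *Cd34*, is a fibroblast marker. Of the fibroblast markers, 3 of 3 tested were higher in PCC vs. WT and 2 of 4 in HYP vs. WT, where 42.1% and 43.5% of all genes tested were higher, and 0 of 2 passed in PCC vs. HYP. With the size factors of the authors or of DESeq2, *Col1a2* was no longer called, which left 2 of 3. Their sum was 31.3 to 56.1 CPM in WT, 85.2 to 123 in HYP and 57.8 to 172 in PCC. The 5 genes are not counted in this list, and its part in the level of *Cd34* was not tested.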
